A study of Homo sapiens with 6 samples.

Results

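The genes of the DNA replication machinery were followed through the silencing of Che-1, the protein encoded by AATF, in KMS27, a human multiple myeloma cell line. The set holds 47 genes, chosen by name from the known factors of replication and not by their values, and all 47 were found among the 16444 genes of the authors' spike-in table and among the 12075 genes of the FPKM table. The treated group was siChe-1, cells in which Che-1 was silenced, and it was set against siControl, the same line under the control condition. Each group had 3 libraries of total RNA depleted of ribosomal RNA. Both groups share the line and its source, bone marrow per the labels, and the duration of silencing is not stated there. Separate cultures are not named in the labels, so each p-value reflects library-to-library spread, possibly technical in origin. The data come from 1 line.

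A chromosome is copied in steps, and the genes fall into groups by the step they serve. Before S phase the origin recognition complex, CDC6 and CDT1 load rings of MCM2 to MCM7 onto DNA, which is called licensing. The kinase CDC7 with its activator DBF4 then fires an origin, CDC45 and the GINS complex join the ring to make the active helicase, and polymerases alpha, delta and epsilon copy the strands on the sliding clamp PCNA. Many of these genes are targets of E2F transcription factors and are transcribed most strongly as cells enter S phase, so their RNA is widely used as a measure of proliferation.

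AATF was low in each siChe-1 library measured. AATF, at chromosome 17, 35306175 to 35414171 on the plus strand of hg19, had 14.9, 14.8 and 17.2 FPKM in siChe-1 and 93.8, 88.7 and 112 FPKM in siControl, a log2 difference of -2.57 (limma adjusted p = 0.000117). FPKM counts fragments per length of transcript, corrected for the size of the library, and the FPKM values of a group carry no replicate number, so they are given by their position in the deposited list. Reads per library had been folded into group means by the authors and were recovered as whole numbers. They exist for 2 siChe-1 and 3 siControl libraries, since siChe-1 replicate 3 is not in that table. The recovered gene reads numbered 20791639 and 21954068 in siChe-1 and 21684510 to 23742732 in siControl. Of the plasma cell markers 8 of 8 were measured, with a summed 9050 to 12700 FPKM in siChe-1 and 7300 to 10400 FPKM in siControl. Most of that sum was IGJ, the joining chain of antibodies, with 10040 ± 1866 FPKM in siChe-1 and 8428 ± 1692 FPKM in siControl (SD, n = 3 each); of the others XBP1 fell (-0.47, limma adjusted p = 0.0201) and CD38 rose (0.74, 0.0043). The B cell, myeloid, stromal and endothelial markers searched for are not listed in the FPKM table. Of the T cell markers 1 of 3 was listed (0.368 to 0.763 FPKM in siChe-1, 0.388 to 0.637 FPKM in siControl) and of the erythroid markers 1 of 2 (0.0641 to 0.125 FPKM in siChe-1, 0.197 to 0.651 FPKM in siControl).

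The replication genes covered a wide range of abundance. PCNA stood at the top with 187 ± 13.7 FPKM in siChe-1 and 191 ± 11.9 FPKM in siControl (SD, n = 3 each), and MCM7 came next with 122 ± 9.93 FPKM in siChe-1 and 124 ± 7.41 FPKM in siControl. At the bottom were RPA3, the smallest subunit of the single-strand binding protein RPA, with 5.61 ± 0.96 FPKM in siChe-1 and 4.90 ± 0.68 FPKM in siControl, and ORC1, an ATPase subunit of the origin recognition complex, with 4.37 ± 0.62 FPKM in siChe-1 and 5.04 ± 0.31 FPKM in siControl. RPA3 and ORC1 do not differ beyond their spread in siControl. The order hardly moved at the top, where DBF4 was the exception: it ranked at 5 in siChe-1 and at 3 in siControl. POLD2, the second subunit of polymerase delta, ranked at 14 in siChe-1 and at 8 in siControl, whereas POLE, the catalytic subunit of polymerase epsilon, ranked at 30 in siChe-1 and at 37 in siControl. In siControl the neighbours DBF4 (98.5 ± 11.9), RFC4 (96.5 ± 9.996) and CDC6 (94.5 ± 11.7 FPKM) overlapped within 1 SD. MCM7 stood well above its ring partners, of which MCM3 was the next (67.1 ± 5.54 FPKM in siChe-1, 75.1 ± 3.81 FPKM in siControl). MCM7 shares its locus with AP4M1, CNPY4, TAF6 and MIR25, and whether counting used strand is not stated in the labels.

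**Figure D1:**
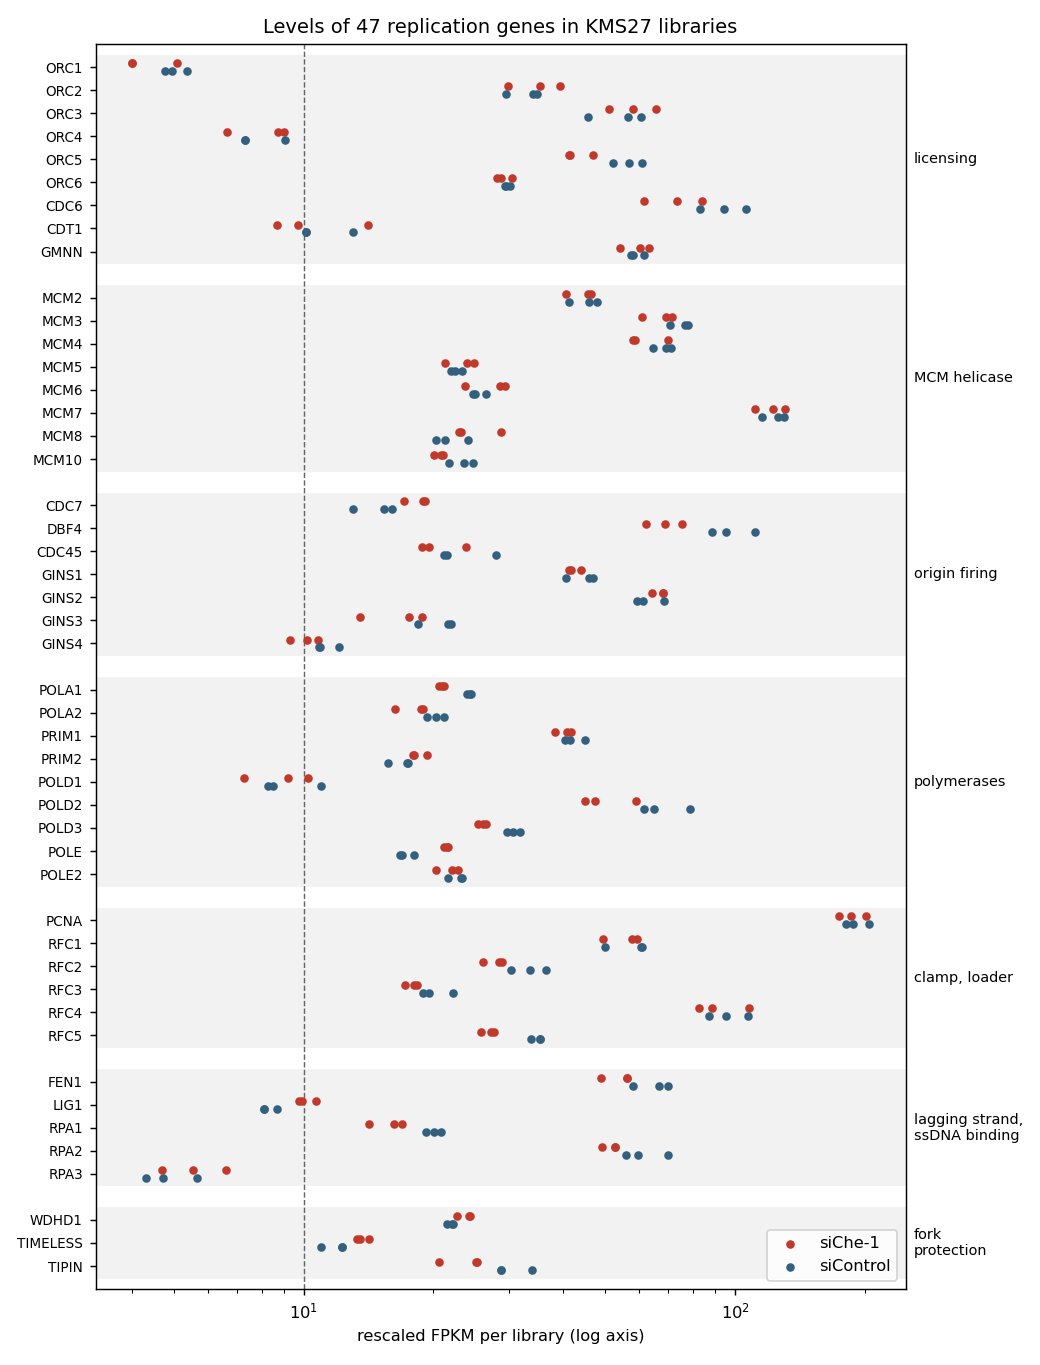
Rescaled FPKM of each of the 47 replication genes per library (horizontal log axis), grouped by role, with 3 red points for siChe-1 above 3 blue points for siControl; the dashed line is the minimum of 10 FPKM. PCNA and MCM7 lie above 100 FPKM in both groups, and the siChe-1 points of DBF4 (62.3 to 75.4) lie clear of its siControl points (88.3 to 112).

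Set against all other genes, a minority of single subunits fell in siChe-1, and most of the replication machinery did not pass the test. On FPKM, 42 of the 47 genes passed the minimum mean of 10 FPKM; of these 8 fell and 1 rose, at a limma adjusted p under 0.05 over all 6285 genes tested, of which 15.1% fell and 15.1% rose. On this scale the share that fell, 19.0%, is close to that background, whereas the share that rose, 2.4%, is below it. No test was made of either share. The median log2 difference of the 42 was -0.07, against -0.00 over all genes, 31 of the 42 had a negative value, and the range ran from -0.51 for DBF4 to 0.30 for CDC7 and POLE. The 5 genes under the minimum were ORC1, ORC4, POLD1, LIG1 and RPA3. The recovered reads of 5 libraries, which also cover those 5, gave 12 of 47 lower (25.5%) and 0 higher by edgeR. Among 12533 genes 14.8% were lower and 14.1% higher, and these shares were not tested against each other. The median was -0.15 for the 47 and -0.00 for all. At an unadjusted p under 0.05 1 of the 47, POLE, was higher on reads, and DESeq2 on the same reads gave 13 lower and 0 higher. The same 8 genes fell on both scales: ORC5, DBF4, POLA1, POLD2, POLD3, RFC5, RPA1 and TIPIN. CDC6, GINS3, FEN1 and RPA2 passed only on reads, POLE only on FPKM, and 34 of the 47 passed on neither.

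These counts rest on few libraries and move with them. The FPKM count of lower genes was 1 without siChe-1 list position 3, 2 without siControl position 3, and 4 without either siChe-1 position 1 or siControl position 1. The read count of lower genes was 4 without siChe-1 replicate 1, without siChe-1 replicate 2 or without siControl replicate 3, and 6 without siControl replicate 1. With list position as a replicate block, a fit chosen after the data were seen, 18 fell and 4 rose of 42, against 29.3% and 28.5% of all genes. The FPKM of the groups did not overlap for 15 genes lower in siChe-1 and 5 higher among the 42, against 22.8% and 22.5% of all genes.

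**Figure D2:**
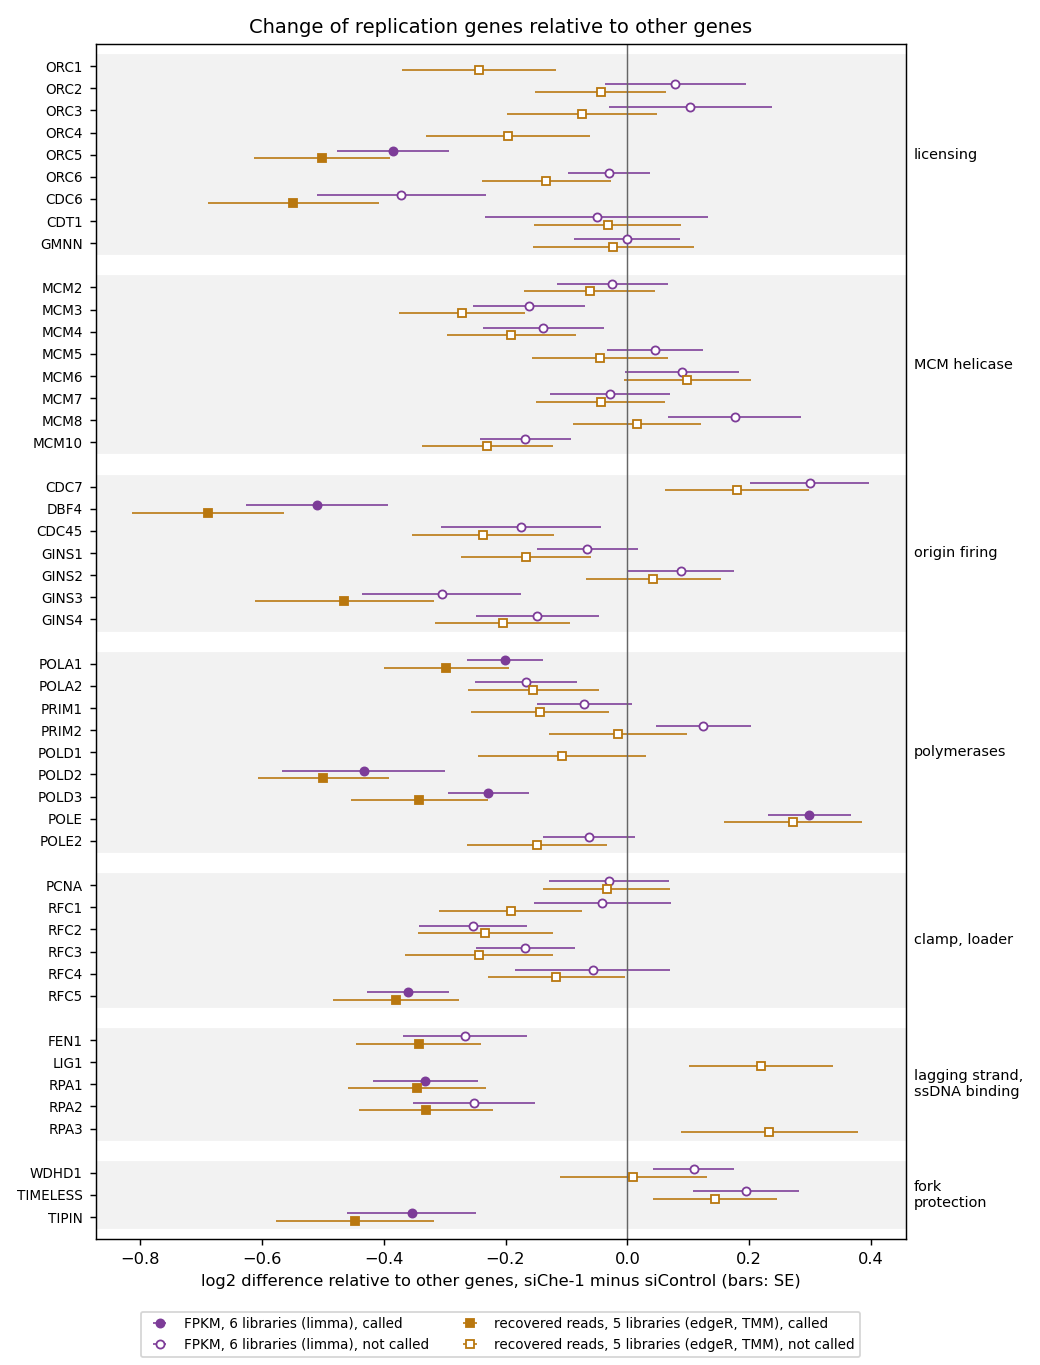
Log2 difference between siChe-1 and siControl relative to all genes for each replication gene, by limma on FPKM (6 libraries) and by edgeR on recovered reads (5 libraries), with bars for the SE and filled symbols for calls. Values lie between -0.69 and 0.30, DBF4 is lowest on both scales, and the MCM genes run from -0.27 (MCM3, reads) to 0.18 (MCM8, FPKM).

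Among the licensing factors, ORC5 and CDC6 were the genes that fell, and the other 5 tested on FPKM lay between -0.05 for CDT1 and 0.10 for ORC3. ORC5 is a subunit of the origin recognition complex, the ATPase that marks origins. It had 46.8, 41.3 and 41.2 FPKM in siChe-1 and 60.9, 52.2 and 56.8 FPKM in siControl, with no overlap between the groups. Its log2 difference was -0.39 ± 0.09 (SE; limma adjusted p = 0.0183) on FPKM and -0.50 ± 0.11 on reads (edgeR adjusted p = 0.00495), where the scaled reads were 1412 and 1488 in siChe-1 and 2127, 1862 and 2168 in siControl. Its FPKM call was lost without siChe-1 position 3 (adjusted p = 0.0802), without siControl position 1 (0.0526) and without siControl position 3 (0.0591), and its read call without siChe-1 replicate 1 (0.0512). CDC6, the ATPase that joins the origin recognition complex to load MCM rings, had 73.5, 61.7 and 83.8 FPKM in siChe-1 and 106, 82.9 and 94.2 FPKM in siControl. The groups overlapped by a single library each, and the difference of -0.37 ± 0.14 missed the threshold (limma adjusted p = 0.0799). It passed with the position block (0.00702) and without siControl position 2 (-0.46, 0.0425). On reads CDC6 fell by 0.55 ± 0.14 on the log2 scale (edgeR adjusted p = 0.0106), with 5085 and 4238 scaled reads in siChe-1 and 7965, 5747 and 6736 in siControl, a call lost without siChe-1 replicate 2 (-0.42, adjusted p = 0.122). CDT1, which loads MCM rings with CDC6, and its inhibitor geminin (GMNN) showed values of -0.05 and -0.00 on FPKM, and GMNN averaged 59.1 FPKM in each group. ORC1, ORC2, ORC3, ORC4 and ORC6 passed on neither scale, with read differences between -0.24 for ORC1 and -0.04 for ORC2.

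None of the 8 MCM genes was called on FPKM by limma or on reads by edgeR without a block, where an unadjusted p under 0.05 held for 0 genes on FPKM and for 1 on reads, MCM3. MCM2 to MCM7 form the ring that unwinds DNA, MCM8 acts in a separate helicase linked to repair, and MCM10 helps to activate the ring. Their FPKM differences ran from -0.17 for MCM10 to 0.18 for MCM8, and their read differences from -0.27 for MCM3 to 0.10 for MCM6. MCM7 had 111, 131 and 123 FPKM in siChe-1 and 116, 130 and 126 FPKM in siControl, a difference of -0.03 ± 0.10 (limma adjusted p = 0.855). The ranges of the groups overlapped almost fully. MCM10 had 21.1, 20.8 and 20.1 FPKM in siChe-1 and 23.6, 21.7 and 24.7 FPKM in siControl. Its groups did not overlap, but the difference of -0.17 ± 0.07 missed the threshold (limma adjusted p = 0.127), as did the read difference of -0.23 ± 0.11 (edgeR adjusted p = 0.126), which passed without siControl replicate 2 (-0.29, adjusted p = 0.039). MCM3, with 6881 and 6960 scaled reads in siChe-1 and 8411, 8136 and 8505 in siControl, came nearest to a call on reads (-0.27 ± 0.10, edgeR adjusted p = 0.0637), and DESeq2 called it as the 1 lower gene among the 8. With list position as a replicate block, limma called MCM3 (-0.16, adjusted p = 0.0254) and MCM10 (-0.17, 0.0475) lower and MCM8 (0.18, 0.0242) higher.

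DBF4 showed the largest fall of all 47 genes on each scale. It is the regulatory subunit that switches on CDC7 at origins. DBF4 had 75.4, 62.3 and 68.7 FPKM in siChe-1 and 112, 88.3 and 95.5 FPKM in siControl, or 68.8 ± 6.54 against 98.5 ± 11.9 (SD, n = 3 each). The highest siChe-1 value lay below the lowest siControl value. The difference was -0.51 ± 0.12 (limma adjusted p = 0.0158), lost without siChe-1 position 3 (-0.50, adjusted p = 0.0605). On reads it was -0.69 ± 0.12 (edgeR adjusted p = 0.0013), with 5912 and 5856 scaled reads in siChe-1 and 10324, 8084 and 10036 in siControl, and it passed without any 1 library. DBF4 shares its locus with SLC25A40 on the opposite strand. CDC7, the catalytic partner of DBF4, had 19.1, 17.1 and 18.9 FPKM in siChe-1 and 16.0, 13.0 and 15.3 FPKM in siControl. These groups did not overlap either, but in the other direction, and the difference of 0.30 ± 0.10 just missed the threshold (limma adjusted p = 0.0518) and passed it with the position block (0.00434). On reads it was 0.18 (edgeR adjusted p = 0.277).

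In the GINS complex, which clamps CDC45 to the MCM ring, GINS3 had the lowest difference on both scales. GINS3 was not tested against its partners. It had 17.6, 13.5 and 18.8 FPKM in siChe-1 and 21.6, 18.4 and 22.01 FPKM in siControl, so that the groups overlapped, with a difference of -0.30 ± 0.13 (limma adjusted p = 0.117, and 0.00522 with the position block). On reads GINS3 fell by 0.46 ± 0.15 on the log2 scale (edgeR adjusted p = 0.0302), with 918 and 688 scaled reads in siChe-1 and 1177, 948 and 1198 in siControl. That call was lost without siChe-1 replicate 2 (-0.27, adjusted p = 0.265), siControl replicate 1 (-0.42, 0.0737) or siControl replicate 3 (-0.40, 0.0979), and with upper-quartile scaling (0.0561). GINS1, GINS2 and GINS4 gave FPKM differences of -0.07, 0.09 and -0.15, and CDC45 one of -0.17 (limma adjusted p = 0.356); none passed on either scale, and CDC45 passed with the position block (0.0199).

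Of the polymerase genes 3 of the 8 tested on FPKM fell and 1 rose, beside 15.1% of all genes in each direction; role groups were not tested against each other. POLD2, a regulatory subunit of polymerase delta, the main lagging-strand enzyme, had 44.9, 59.0 and 47.3 FPKM in siChe-1 and 61.4, 78.5 and 64.9 FPKM in siControl. The groups did not overlap, and the log2 difference was -0.43 ± 0.13 (limma adjusted p = 0.0449). On reads POLD2 fell by 0.50 ± 0.11 (edgeR adjusted p = 0.0039), with 2997 and 2728 scaled reads in siChe-1 and 3807, 4215 and 4117 in siControl, a call that held without any 1 library. POLD3, a further subunit of polymerase delta, had 26.1, 25.3 and 26.5 FPKM in siChe-1 and 30.5, 29.6 and 31.8 FPKM in siControl, a difference of -0.23 ± 0.07 (limma adjusted p = 0.0374). POLA1, the catalytic subunit of polymerase alpha, which lays down the first DNA of each fragment, had 21.2, 20.6 and 21.0 FPKM in siChe-1 and 24.5, 24.2 and 23.9 FPKM in siControl, a difference of -0.20 ± 0.06 (limma adjusted p = 0.0468). The reads of POLD3 and POLA1 gave -0.34 ± 0.11 (edgeR adjusted p = 0.0363) and -0.30 ± 0.10 (0.044). The spread within each group was small for both, and the calls lay near the threshold.

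POLE was the 1 replication gene that rose on FPKM; 2 rose with upper-quartile scaling and 4 (POLE, CDC7, MCM8 and TIMELESS) with the position block. It carries the active site of polymerase epsilon, the main leading-strand enzyme. POLE had 21.1, 21.6 and 21.5 FPKM in siChe-1 and 16.7, 18.04 and 16.9 FPKM in siControl, or 21.4 ± 0.24 against 17.2 ± 0.72 (SD, n = 3 each). All siChe-1 values lay above all siControl values. The difference was 0.30 ± 0.07 (limma adjusted p = 0.0156). The reads, 5877 and 4836 in siChe-1 and 4608, 4495 and 4202 in siControl after scaling, gave 0.27 ± 0.11, which missed the threshold (edgeR adjusted p = 0.0885). POLE2, its partner subunit, gave -0.06 on FPKM. POLA2, PRIM1 and PRIM2, which with POLA1 make up the polymerase alpha-primase complex, gave -0.17, -0.07 and 0.12 and were not called, except POLA2 with the position block (limma adjusted p = 0.0299). POLD1, the catalytic subunit of polymerase delta, lay under the FPKM minimum and gave -0.11 on reads (edgeR adjusted p = 0.595).

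The FPKM call of POLE was lost with no filter (adjusted p = 0.055) and with the deposited scaling (0.0607), while its reads passed with upper-quartile scaling (0.0316). Upper-quartile scaling ended the FPKM calls of POLD2 (0.0922), POLD3 (0.0892) and POLA1 (0.138), and the most abundant transcript in place of the sum ended them too (0.065, 0.058 and 0.0766). POLD3 (0.051) and POLA1 (0.0639) were also lost without the mean-variance trend, and POLA1 with a pseudocount of 0.1 (0.0506). On reads, upper-quartile scaling ended the calls of POLD3 (0.0738) and POLA1 (0.0989). The FPKM call of POLD2 was lost without siChe-1 position 1 (adjusted p = 0.137) or 3 (0.144) and without siControl position 2 (0.0951) or 3 (0.094), and that of POLE without siChe-1 position 3 (0.0605) or siControl position 3 (0.053). The FPKM calls of POLD3 (0.0536 to 0.108) and POLA1 (0.0879 to 0.138) were lost without any 1 of the 6 libraries. On reads, POLD3 and POLA1 were both lost without siChe-1 replicate 1 (0.167, 0.192), siChe-1 replicate 2 (0.0907, 0.0775), siControl replicate 1 (0.0547, 0.121) or siControl replicate 3 (0.196, 0.138), and POLE passed without siChe-1 replicate 2 (0.40, adjusted p = 0.0499).

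PCNA, the clamp that tethers the polymerases, did not pass, while RFC5, a subunit of the loader that opens the clamp, fell. PCNA had 186, 201 and 174 FPKM in siChe-1 and 187, 204 and 181 FPKM in siControl, a difference of -0.03 ± 0.10 (limma adjusted p = 0.849). Its groups overlapped over most of their range, and an antisense gene, PCNA-AS1, shares its locus. RFC5 had 27.6, 27.2 and 25.8 FPKM in siChe-1 and 35.2, 35.3 and 33.7 FPKM in siControl, which left a gap far wider than the spread within either group. The difference was -0.36 ± 0.07 (limma adjusted p = 0.0078), and the call held without any 1 library. On reads RFC5 fell by 0.38 ± 0.10 (edgeR adjusted p = 0.0147), with 1487 and 1440 scaled reads in siChe-1 and 1920, 1867 and 1924 in siControl; that call was lost without siChe-1 replicate 1 (0.0555), siChe-1 replicate 2 (0.0718) or siControl replicate 3 (0.0646). RFC1, RFC2, RFC3 and RFC4, the other loader subunits, gave -0.04, -0.25, -0.17 and -0.06 on FPKM without a call. RFC2 came nearest (limma adjusted p = 0.0672), and its FPKM groups did not overlap. With the position block RFC2 (0.0309) and RFC3 (0.0345) passed.

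The lagging-strand and single-strand binding genes fell in part. RPA1 and RPA2 are the larger subunits of the protein that coats single-stranded DNA. RPA1 had 16.9, 16.2 and 14.2 FPKM in siChe-1 and 20.9, 19.2 and 20.1 FPKM in siControl, a difference of -0.33 ± 0.09 (limma adjusted p = 0.0248) on FPKM and of -0.35 ± 0.11 (edgeR adjusted p = 0.0362) on reads. RPA2 had 49.3, 52.8 and 52.8 FPKM in siChe-1 and 56.0, 59.7 and 70.0 FPKM in siControl; it missed the threshold on FPKM (-0.25 ± 0.10, limma adjusted p = 0.0946) and fell by 0.33 ± 0.11 on reads (edgeR adjusted p = 0.0377). FEN1, the nuclease that trims the flaps of Okazaki fragments, had 48.8, 56.1 and 56.3 FPKM in siChe-1 and 58.1, 66.6 and 70.0 FPKM in siControl. None of these 3 genes overlapped between the groups. FEN1 gave -0.27 ± 0.10 (limma adjusted p = 0.0862) on FPKM and fell by 0.34 ± 0.10 on reads (edgeR adjusted p = 0.0237). LIG1, the ligase that seals the fragments, had 9.74, 10.7 and 9.91 FPKM in siChe-1 and 8.09, 8.66 and 8.08 FPKM in siControl, under the minimum, with a read difference of 0.22 (edgeR adjusted p = 0.184). RPA3 had 5.55, 6.61 and 4.69 FPKM in siChe-1 and 4.32, 5.65 and 4.73 FPKM in siControl and gave 0.23 on reads (edgeR adjusted p = 0.252).

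These calls also moved with the processing. RPA1 was lost on FPKM without siChe-1 position 3 (adjusted p = 0.0914), siControl position 1 (0.0711) or siControl position 3 (0.0737), and with upper-quartile scaling (0.0501). FEN1 (0.00349) and RPA2 (0.0134) passed on FPKM with the position block, and FEN1 also with a minimum of 1 FPKM (0.0422), no filter (0.0371) or the deposited scaling (0.0458). On reads, RPA1 and RPA2 were lost without siChe-1 replicate 1 (0.0572, 0.104), siChe-1 replicate 2 (0.2, 0.143), siControl replicate 1 (0.116, 0.0706) or siControl replicate 3 (0.122, 0.188), and FEN1 without siChe-1 replicate 1 (0.106), siChe-1 replicate 2 (0.0783) or siControl replicate 3 (0.0822). Upper-quartile scaling ended the read calls of RPA1 (0.0709), RPA2 (0.0751) and FEN1 (0.0581).

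At the fork, TIPIN fell, and its partner TIMELESS did not pass the test. The pair travels with the helicase and keeps it in step with the polymerases. TIPIN had 20.6, 25.04 and 25.2 FPKM in siChe-1 and 28.8, 28.7 and 33.8 FPKM in siControl, with no overlap and a difference of -0.35 ± 0.11 (limma adjusted p = 0.0404). On reads it fell by 0.45 ± 0.13 (edgeR adjusted p = 0.02), with 682 and 869 scaled reads in siChe-1 and 1115, 983 and 1077 in siControl. TIMELESS had 13.3, 14.2 and 13.5 FPKM in siChe-1 and 10.96, 12.3 and 12.3 FPKM in siControl, higher in siChe-1 without overlap, but the difference of 0.19 ± 0.09 missed the threshold (limma adjusted p = 0.128) and passed it with the position block (0.0324). WDHD1, an adaptor between helicase and polymerase alpha, gave 0.11 on FPKM (limma adjusted p = 0.252). The FPKM call of TIPIN was lost without siChe-1 position 1 (0.121) or 3 (0.0736) and without siControl position 1 (0.0599) or 3 (0.123), with upper-quartile scaling (0.0825) and with the most abundant transcript (0.0609), and its read call without siChe-1 replicate 1 (0.189), siControl replicate 1 (0.0596) or siControl replicate 3 (0.0603).

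The ratio of 2 transcripts within a library does not depend on how libraries are scaled. Ratios are given as a description for 10 pairs of genes whose proteins work together. An exact test of 3 against 3 libraries cannot give a p under 0.1, so no pair could pass it. The pairs were chosen after the values had been seen. The ratio of DBF4 to CDC7 was 3.95, 3.63 and 3.63 in siChe-1 and 6.96, 6.78 and 6.23 in siControl, a log2 difference of -0.83 with the groups far apart. The ratio of TIPIN to TIMELESS was 1.55, 1.76 and 1.87 in siChe-1 and 2.62, 2.34 and 2.76 in siControl, a log2 difference of -0.58. The ratio of POLE2 to POLE was 1.08, 1.02 and 0.941 in siChe-1 and 1.39, 1.28 and 1.28 in siControl, a log2 difference of -0.38. The ratio of POLD2 to POLD1 was 6.18, 5.77 and 5.15 in siChe-1 and 7.43, 7.15 and 7.65 in siControl, a log2 difference of -0.38. Each of these 4 ratios was lower in every siChe-1 library than in every siControl library. How often the ratio of any 2 genes separates the groups was not counted. Among single genes on FPKM, 22.8% separated them as lower in siChe-1 and 22.5% as higher. RPA3 to RPA1 (0.54) and PRIM2 to PRIM1 (0.20) also separated the groups, in the other direction; RPA3 and POLD1 lie under the FPKM minimum. POLA2 to POLA1, POLD3 to POLD1, RPA2 to RPA1 and CDT1 to GMNN overlapped, with log2 differences between -0.18 and 0.09. The recovered reads gave -0.86 for DBF4 to CDC7 and -0.60 for TIPIN to TIMELESS.

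**Figure D3:**
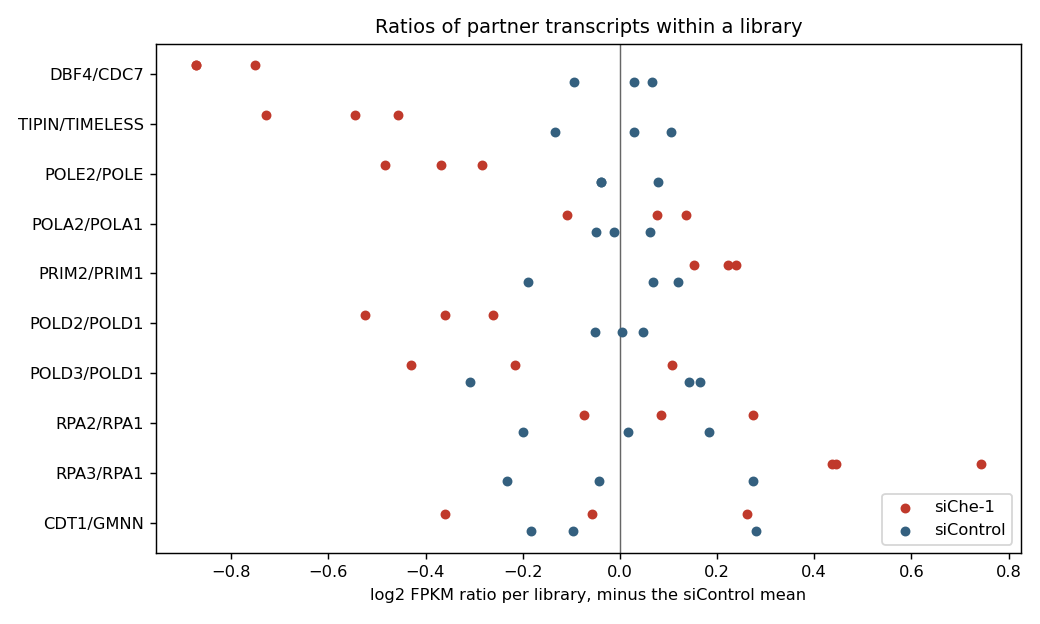
Log2 FPKM ratio of 10 pairs of partner transcripts in each library, minus the mean of siControl, with 3 red points for siChe-1 above 3 blue points for siControl. The siChe-1 points of DBF4/CDC7 and TIPIN/TIMELESS lie to the left of all siControl points, by -0.83 and -0.58 on average.

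Against the spike-ins, RNAs of known amount added to the samples, nearly the whole set was lower in siChe-1. Of the 47 genes, 46 fell and 0 rose in the authors' deposited table at an adjusted p under 0.05, against 63.5% and 0.0635% of 12591 genes, and by that table the median log2 change was -1.40 for the 47 genes and -1.25 for all. All 47 values were negative. The gene that did not pass was RPA3 (authors' deposited table: log2 change -1.04, adjusted p = 0.0727). The lowest value in the authors' deposited table was that of DBF4 (-1.92, a fold of 0.265, adjusted p = 0.000128), and the highest that of POLE (-0.96, a fold of 0.516, adjusted p = 0.0368). DBF4 had 3835 and 3187 spike-in-scaled reads in siChe-1 and 11002, 13048 and 15702 in siControl. POLE had 3812 and 2632 in siChe-1 and 4910, 7255 and 6574 in siControl. PCNA had 3499 and 3213 in siChe-1 and 6033, 9614 and 8962 in siControl, and MCM7 had 6177 and 5089 in siChe-1 and 10573, 16325 and 14319 in siControl. In each of these 4 genes both siChe-1 libraries lay below every siControl library. So did the median of all genes, at -1.09 and -1.33 in siChe-1 against -0.38, 0.21 and 0.18 in siControl, each relative to the siControl mean. The share of all genes separated in this way was not counted. The values of PCNA (-1.29) and MCM7 (-1.29) in the authors' deposited table lie close to the median of all genes.

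The spike-in factor of a library acts on all its genes alike. The spike-in reads alone numbered 835414, 1041244 and 379232 in siChe-1 replicates 1, 2 and 3. In siControl they numbered 519573, 351573 and 376170. Thus siChe-1 replicate 3 lay within the siControl range. It has no recovered gene reads, so its ratio is unknown, and the spike-in falls rest on siChe-1 replicates 1 and 2. For each spike-in read there were 24.9 and 21.1 recovered gene reads in siChe-1 and 42.3, 61.7 and 63.1 in siControl, and siControl replicate 1 lay 0.38 below the siControl mean in the median of all genes and 0.36 below it in the median of the 47. The replication genes made up 0.559% and 0.562% of recovered reads in siChe-1 and 0.609%, 0.601% and 0.605% in siControl. On recovered reads with spike-in factors edgeR gave 47 of 47 lower and 0 higher, against 84.3% and 0.191% of all genes; without siChe-1 replicate 2 the count was 17 of 47. In such bulk values fewer cells, less RNA per cell and an uneven addition of spike-ins cannot be told apart. The step at which the spike-ins were added, and their amount, are not stated in the labels.

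**Figure D4:**
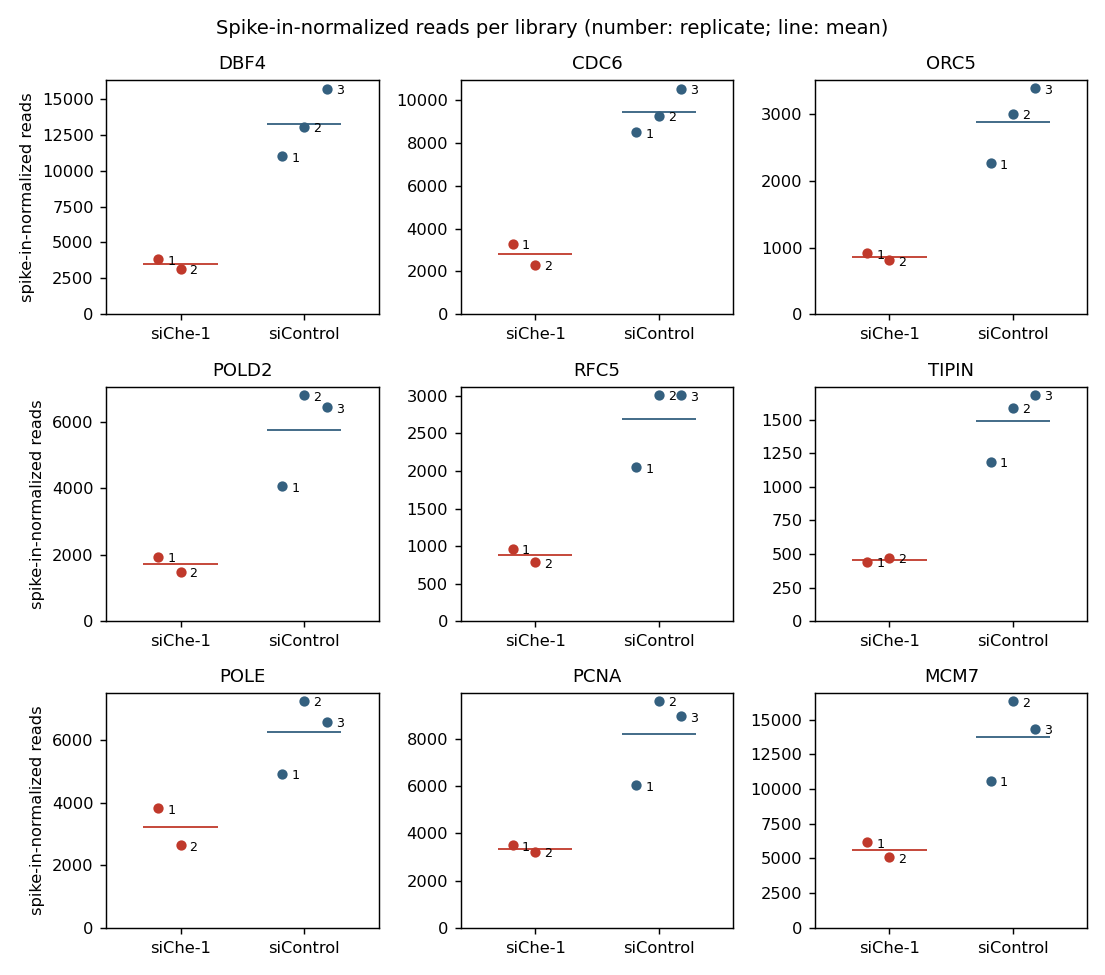
Spike-in-normalized reads (vertical axis from 0, 1 panel per gene) of 9 replication genes in the 2 siChe-1 and 3 siControl libraries of the authors' spike-in table; points are libraries with their replicate number and lines are means. Both siChe-1 points lie below all siControl points in each panel, from DBF4 (3187 to 3835 against 11002 to 15702) to POLE (2632 to 3812 against 4910 to 7255). The median of all genes separates the libraries in the same direction.

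**Figure D5:**
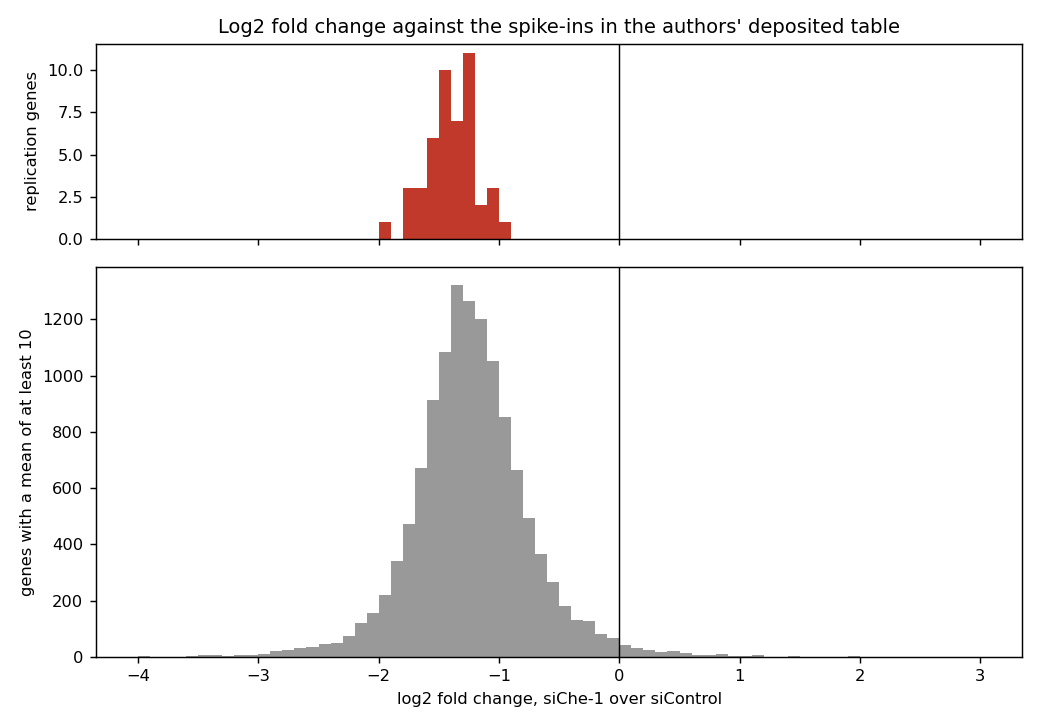
Histograms of the log2 fold change of siChe-1 over siControl against the spike-ins in the authors' deposited table, for the 47 replication genes (top) and for all genes with a mean of at least 10 (bottom, genes outside the axis not drawn). The replication genes span -1.92 (DBF4) to -0.96 (POLE), inside the bulk of all genes, whose median is -1.25.

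By single transcripts, the authors' deposited table holds 80 transcripts of the 47 genes, and 23 of the genes have more than 1. Of the 80, 12 were lower in the authors' deposited table and 0 were higher at a q under 0.05 (1 higher at an unadjusted p under 0.05), against 10.3% lower and 7.98% higher of 18716 transcripts. They belonged to 12 genes, CDC6, DBF4, FEN1, ORC5, POLA1, POLD2, POLD3, RFC2, RFC5, RPA1, RPA2 and TIPIN. The RFC5 transcript called, NM_007370, at the locus on chromosome 12, 118454506 to 118470042 of hg19, had authors' deposited FPKM of 18.9 in siChe-1 and 26.7 in siControl. The other RFC5 transcripts were not called, among them NM_181578 with authors' deposited FPKM of 6.57 in siChe-1 and 6.53 in siControl. The ORC5 transcript called, NM_002553, at the locus on chromosome 7, 103766788 to 103848495, had authors' deposited FPKM of 36.5 in siChe-1 and 54.1 in siControl. The other ORC5 transcript, NM_181747, was not called, with authors' deposited FPKM of 5.18 in siChe-1 and 4.48 in siControl. These are the authors' group values, on their own scaling, and are not independent of the gene sums above.

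Because replication genes are known for E2F sites near their starts, the promoters were read for such letters. Windows of 250 bases before to 50 bases after each start, from RefSeq on GRCh38.p14, were found for 41 of the 47 genes, as 52 windows. The letters TTTCCCGC, TTTCGCGC, TTTGCCGC or TTTGGCGC, on either strand, were in at least 1 window of 21 of the 41 genes, and in 40.4% of their windows against 3.3% of all 35116 windows. They were in 4 of the 10 matched genes that fell on reads and in 17 of the 31 matched genes that were not called. CCAAT on either strand was in 53.8% of the replication windows against 34.6% of all, and GGGCGG on either strand in 39 of the 52 against 45.0% of all; these searches can overlap in place. A match describes letters and not a bound site. For the genes printed below, a window with the E2F letters was taken first where a gene had 1. MCM7 had 3 windows, PCNA had 2, and POLE, POLA1, DBF4 and RFC5 had 1 each. The 250 bases before the start follow, 5′ to 3′ on the strand of the gene, for the gene that rose, the most abundant pair, and 3 genes that fell; capitals mark the E2F letters and CCAAT in either orientation.
POLE (chr12:132687343-132687592, minus strand): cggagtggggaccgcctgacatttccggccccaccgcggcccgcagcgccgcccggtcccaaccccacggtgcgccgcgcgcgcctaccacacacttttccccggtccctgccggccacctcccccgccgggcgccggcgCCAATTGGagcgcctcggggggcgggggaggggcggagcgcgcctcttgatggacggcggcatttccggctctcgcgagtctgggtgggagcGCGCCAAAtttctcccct
PCNA (chr20:5126623-5126872, minus strand): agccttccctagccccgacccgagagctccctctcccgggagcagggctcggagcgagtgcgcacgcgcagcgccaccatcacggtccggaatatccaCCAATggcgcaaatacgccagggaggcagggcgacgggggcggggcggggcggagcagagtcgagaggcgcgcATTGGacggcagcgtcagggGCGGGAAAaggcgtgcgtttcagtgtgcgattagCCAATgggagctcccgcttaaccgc
MCM7 (chr7:100101398-100101647, minus strand): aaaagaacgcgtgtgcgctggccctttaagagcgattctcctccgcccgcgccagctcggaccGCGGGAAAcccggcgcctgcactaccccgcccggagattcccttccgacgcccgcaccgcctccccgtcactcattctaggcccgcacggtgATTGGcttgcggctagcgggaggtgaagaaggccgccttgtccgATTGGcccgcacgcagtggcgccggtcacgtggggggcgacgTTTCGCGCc
POLA1 (chrX:24693668-24693917, plus strand): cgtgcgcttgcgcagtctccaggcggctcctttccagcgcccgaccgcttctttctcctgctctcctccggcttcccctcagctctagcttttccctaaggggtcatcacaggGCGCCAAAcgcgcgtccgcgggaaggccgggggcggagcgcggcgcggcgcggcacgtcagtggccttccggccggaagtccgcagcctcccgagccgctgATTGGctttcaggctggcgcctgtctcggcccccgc
DBF4 (chr7:87876243-87876492, plus strand): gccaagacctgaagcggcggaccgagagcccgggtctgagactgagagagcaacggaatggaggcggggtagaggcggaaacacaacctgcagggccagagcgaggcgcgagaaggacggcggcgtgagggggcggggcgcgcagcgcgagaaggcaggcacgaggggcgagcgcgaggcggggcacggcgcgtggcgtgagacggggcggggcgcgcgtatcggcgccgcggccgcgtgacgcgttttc
RFC5 (chr12:118016453-118016702, plus strand): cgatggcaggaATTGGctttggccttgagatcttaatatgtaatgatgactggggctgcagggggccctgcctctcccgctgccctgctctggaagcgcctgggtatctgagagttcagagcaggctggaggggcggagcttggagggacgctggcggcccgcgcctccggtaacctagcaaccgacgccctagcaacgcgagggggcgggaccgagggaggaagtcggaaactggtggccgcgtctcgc
In the windows printed, POLE, which rose on FPKM, and POLA1, which fell, both carry GCGCCAAA. PCNA and MCM7, which were not called, both carry GCGGGAAA. Whether the letters bear on the direction of change was not tested. DBF4 has none of the capital-marked letters in this window and RFC5 has a CCAAT match alone.

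Further genes of the pathway were read from 3 lists outside the 47. Of the other replication factors 3 of 27 tested on FPKM fell and 2 rose by limma, beside 15.1% of all genes in each direction, with a median of 0.01. On reads 7 of 33 fell and 0 rose by edgeR and by DESeq2, beside 14.8% and 14.1% of all genes by edgeR (0 rose at an unadjusted p under 0.05 either). POLE4, a small histone-fold subunit of polymerase epsilon, had 26.2, 33.8 and 28.3 FPKM in siChe-1 and 41.6, 48.8 and 37.7 FPKM in siControl, and fell by 0.52 (limma adjusted p = 0.0188), lost without siChe-1 position 1 (0.0645) or 3 (0.0728). DNA2, a nuclease that acts with FEN1 on long flaps, had 24.2, 23.6 and 24.97 FPKM in siChe-1 and 19.0, 18.3 and 19.6 FPKM in siControl, and rose by 0.34 (limma adjusted p = 0.0095), lost with the deposited scaling (0.0509). Thus POLE4 and the catalytic POLE were called in opposite directions on FPKM. Of the genes of nucleotide supply 1 of 11 fell on FPKM, beside 15.1% of all genes, and 4 of 12 on reads, beside 14.8%. Of these genes 0 rose on either by limma or edgeR; at an unadjusted p under 0.05 1 was higher on FPKM and 0 on reads, with 0 higher by DESeq2. TK1, thymidine kinase, had 35.1, 41.2 and 39.8 FPKM in siChe-1 and 47.5, 44.7 and 55.5 FPKM in siControl and fell by 0.34 (limma adjusted p = 0.0472), a call lost without any 1 library except siControl position 2. It was also lost with upper-quartile scaling (adjusted p = 0.0924), with the most abundant transcript (0.0678) and without the trend (0.0516). DCK, deoxycytidine kinase, gave 0.31 without a call (limma adjusted p = 0.0908), and passed with the position block (0.00188) and with upper-quartile scaling (0.0424).

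Of the genes of S-phase entry 2 of 9 fell and 1 rose on FPKM, beside 15.1% of all genes in each direction, and 4 of 11 fell and 1 rose on reads, beside 14.8% and 14.1%. E2F3, an activator of replication genes, had 17.4, 16.5 and 17.5 FPKM in siChe-1 and 27.2, 24.4 and 25.2 FPKM in siControl, with a wide gap between the groups and a fall of 0.55 (limma adjusted p = 0.00226). CCNE2, cyclin E2, which drives CDK2 at the start of S phase, had 54.8, 48.7 and 49.7 FPKM in siChe-1 and 42.8, 33.5 and 35.3 FPKM in siControl and rose by 0.45 (limma adjusted p = 0.0182). That call was lost without siChe-1 position 1 (0.0636), siChe-1 position 3 (0.0546) or siControl position 3 (0.072), and with no filter (0.0613). The gene that rose on reads was E2F1, named after its value was seen, with 0.54 ± 0.12 (edgeR adjusted p = 0.00523). E2F1 had 17.2, 26.9 and 20.5 FPKM in siChe-1 against 11.8, 17.4 and 13.6 FPKM in siControl. On FPKM its groups overlapped, and the difference of 0.56 ± 0.18 missed the threshold (limma adjusted p = 0.0535). On the spike-in scale of the authors' deposited table, 30 of 34 other replication factors, 11 of 12 genes of nucleotide supply and 9 of 11 genes of S-phase entry were lower, beside 63.5% of all genes.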

How the data were processed

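RNA of 3 siChe-1 and 3 siControl libraries was compared, grouped by sample title. Stranded libraries were prepared after ribosomal depletion (500 ng input), per the labels' protocols. The submitters' processing notes name hg19 and the tools TopHat, Cufflinks, Cuffdiff, HTSeq and DESeq2, without versions or roles, and no label states whether counting used strand. The members, lists and tests were chosen with earlier results of these data known.

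The authors deposited raw read counts of 92 spike-ins per library, and a table whose signal is a group mean of read counts divided by spike-in size factors, with a ratio (fold), its log2 and p-values. The authors also deposited a transcript table with FPKM per group and as lists of 3 values per group, a log2 ratio, and p-values with q-values, per the file headers. In the spike-in table siControl weighs 0.6 in the overall mean, and 100% of 2139 low siChe-1 means and 1327 low siControl means were whole reads with siChe-1 replicates 1 and 2, against 0% with any other set. Whole reads were recovered for 16386 of 16444 genes (99.6%), among them all 47 replication genes; the others hold 12.0% of the siChe-1 signal and 12.5% of the siControl signal.

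Transcripts were summed by gene, genes with a mean of at least 10 FPKM were kept, a median-of-ratios factor rescaled each library, and log2(FPKM + 1) was tested with limma 3.58.1 with a mean-variance trend, which understates the change of low genes. Recovered reads (mean of at least 10) were tested with edgeR 4.0.16 (quasi-likelihood, TMM or spike-in factors) in R 4.3.3, with DESeq2 1.42.0 as an alternative. Scaled reads in the text are TMM-scaled unless called spike-in-scaled. For each test a two-sided p-value was taken, the Benjamini-Hochberg method adjusted it across the genes tested, and 0.05 was the threshold. Of the fits, limma on FPKM and edgeR with TMM factors, both without a block, were tried on simulated data. Differences are siChe-1 minus siControl on the log2 scale, with the SE. Deviations from the group means correlated by 0.40, 0.66 and 0.18 between siChe-1 and siControl at list positions 1, 2 and 3. Between unlike positions the correlations ran from -0.55 to 0.29. For siChe-1 position 3 the value with siControl position 1 (0.26) was above that with position 3. Named genes are those called on either relative scale, the gene with the smallest limma p and the most abundant gene of each role group, and 2 of each further list by limma p; others described were chosen after their values were seen. Promoter windows were taken from RefSeq. Alternatives were other scalings, filters, pseudocounts, transcripts, blocks and leaving out each library.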

Additional observations from a re-analysis of the deposited data

How the results depend on the processing

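Apart from single libraries, counts of calls moved as follows. All genes called on FPKM were 1897, and 2934 with a minimum of 1 FPKM, 3044 with no filter and 3631 with list position as a replicate block. Replication genes called lower on FPKM were 8, and 3 with upper-quartile scaling, 4 with the most abundant transcript and 18 with that block; those called higher were 1, and 0 with no filter or with the deposited scaling, 2 with upper quartile and 4 with the block. On reads, upper-quartile scaling gave 6 lower and 1 higher. Upper-quartile scaling moved the median of all genes by 0.06 on FPKM and 0.07 on reads. Leaving out 1 library gave 984 to 1743 genes called on FPKM and 2089 to 4174 on reads; replication genes lower ranged over 1 to 6 on FPKM and 4 to 15 on reads, and those higher over 0 to 1 on both. On the spike-in scale the ranges were 2863 to 11731 for all genes and 17 to 47 for replication genes.

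The values near 0 changed sign. On FPKM, upper quartile gave 0.0361 for MCM7 and 0.0347 for PCNA, and leaving out 1 library gave -0.0794 to 0.0358 for MCM7 and -0.0799 to 0.0272 for PCNA. On reads, upper quartile gave 0.0281 for MCM7 and 0.0395 for PCNA, and leaving out 1 library gave -0.1034 to 0.0308 for PCNA. The log2 ratio differences without 1 library ran from -0.016 to 0.1066 for POLA2 to POLA1, from -0.0039 to 0.1848 for RPA2 to RPA1 and from -0.2122 to 0.101 for CDT1 to GMNN. The causes were not tested. Of all other comparisons of a value with its alternatives, 668 kept direction and side of the threshold, 122 lost a call and 18 gained one.

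The replicate numbers of the recovered reads leave 2 pairs, which share only a number (deviations correlated by 0.37 and 0.39). The deviations of 2 siChe-1 libraries from their mean mirror each other, so these 2 correlations are not separate signs of pairing. With the replicate block, edgeR called 3873 genes relative to all genes, 10 of the replication genes lower and 0 higher, and on the spike-in scale 58 genes and 0 replication genes. No paired analysis of FPKM by replicate number was possible because the list values carry none. With 2 siChe-1 libraries of recovered reads, precision is limited, and leaving out 1 assumes that the lone library varies like the siControl libraries.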
